A study of Mus musculus with 23 samples.

Results

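The EGF receptor (ErbB) family and its ligands were analysed in 23 low-passage murine pancreatic ductal adenocarcinoma (PDAC) cell lines. The members were 10 listed genes, the receptors Egfr, Erbb2, Erbb3 and Erbb4 and the ligands Tgfa, Btc, Hbegf, Ereg, Areg and Epgn. Of these, 9 had at least 1 probe set that the platform annotation ties to that symbol alone, out of 18193 genes measured in this way. They held 20 of the 45037 probe sets, a probe set being the group of short probes that reports 1 transcript. Areg had no probe set of its own name in this annotation and was not analysed here. Each gene is given by its probe set with the highest mean over the lines, and its other probe sets served as a check.

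All arrayed lines were derived from genetically engineered mice with pancreatic tumours, were cultured without any drug and were measured on 1 array each, so that 1 line counted as 1 replicate. Of these, 12 carried the prefix PPT and 11 the prefixes ASC, B, HEP, HEP2, LN1, PUL or PUL3, and by the numbers in their names they derived from 14 mice, 5 of which gave more than 1 line. The genotype was listed for 13 lines, 10 with Ptf1a Cre and 3 with Pdx1-Cre, both of which recombine in pancreatic progenitors. The allele Trp53 R172H was listed for 6 of the 13 lines, and the genotype of the other 10 lines was not used here. The ages of the mice were not used here. The signals are log2 values, and the median of all probe sets on an array lay between 3.58 and 3.89, with a mean of 3.76. A signal under the median of its own array is called background below.

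ErbB receptors are tyrosine kinases at the cell surface that pair up when a ligand binds. Erbb2 has no known ligand of its own and acts as a partner, Erbb3 has a weak kinase and couples to PI3 kinase, and Erbb4 binds neuregulins and some of the EGF-like ligands. Tgfa, Areg and Epgn bind Egfr, whereas Btc, Hbegf and Ereg bind Egfr and Erbb4. The ligands are made as membrane proteins and are released by sheddases such as Adam17. In the pancreas, Egfr and Tgfa are known for their part in the change of acinar cells to duct-like cells and in the start of pancreatic tumours. Epithelial-mesenchymal transition (EMT) is the loss of epithelial junctions and keratins with a gain of mesenchymal genes, and pancreatic tumour lines are known to differ in it.

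The EMT state of each line was given as an epithelial score, the mean centred log2 signal of 12 epithelial genes minus that of 7 mesenchymal genes from the same arrays. The score ran from -4.59 in ASC-5193 to 3.87 in PPT-15272. The largest gap in it, 1.88, made up 22.3% of the range of 8.46 and separated 6 lines from 17. The same 6 lines were apart in Cdh1, the E-cadherin gene, where the gap of 3.75 made up 39.1% of the range. They were ASC-5193, PPT-17728, ASC-53909, PPT-5320, PPT-16992 and PPT-3250, with Cdh1 signals between 2.22 and 6.48, against 10.23 to 11.81 in the other 17 lines. These 6 lines are called the Cdh1-low lines. They are not groups of the study, and no test was run between them and the other lines.

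The lines were checked against cell type markers. The summed signal of 8 ductal markers lay between 13.94 and 15.41 (log2) in the 17 lines and between 8.02 and 13.86 in the Cdh1-low lines. ASC-5193 stood apart, with the lowest signals of all lines for the keratins Krt8 (3.44), Krt18 (2.46) and Krt19 (2.87). All 7 fibroblast markers had a higher median in the Cdh1-low lines, with a summed signal of 11.74 to 13.84 against 5.80 to 13.80. Of 6 leukocyte and macrophage markers, Ptprc and Adgre1 were at background in all 23 lines, whereas Cd68, Csf1r and Cd14 were above it in every line. Cd14 was 6.19 to 7.87 in the Cdh1-low lines and 9.10 to 10.91 in the others, and Lyz2 reached 8.54 in PPT-17728. The summed signal of this list was 7.45 to 9.23 in the Cdh1-low lines and 9.39 to 10.96 in the others, without overlap. Of 4 endothelial markers, Pecam1, Cdh5 and Tek were at background in all lines and Kdr in none, with a summed signal of 4.76 to 5.13 against 4.85 to 5.47. Of 6 acinar markers 3 were measured, Cpa1 at background in all lines, with a summed signal of 5.36 to 8.61 against 5.34 to 9.05. Cells of different types and different amounts of RNA per cell cannot be told apart in such bulk samples, and the part of the fibroblast and leukocyte markers in the results below was not tested.

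RefSeq promoters, from 250 bases before to 50 bases after the start of the gene in the build GRCm38.p6, were listed for 7 of the 10 members. The sequences are shown for the ligand and the receptor that followed the epithelial score (Tgfa and Erbb2) and for the receptor and the ligand that fell in single lines (Egfr and Btc). They lie at chr6:86194972-86195271 on the plus strand (Tgfa), chr5:91402945-91403244 on the minus strand (Btc), chr11:98412234-98412533 on the plus strand (Erbb2) and chr11:16751953-16752252 on the plus strand (Egfr), and are printed from 5′ to 3′ along the gene. Capitals mark the E-box CAGGTG, to which EMT repressors of the Zeb and Snail families are known to bind. It was searched on both strands, that is also as CACCTG.
Tgfa: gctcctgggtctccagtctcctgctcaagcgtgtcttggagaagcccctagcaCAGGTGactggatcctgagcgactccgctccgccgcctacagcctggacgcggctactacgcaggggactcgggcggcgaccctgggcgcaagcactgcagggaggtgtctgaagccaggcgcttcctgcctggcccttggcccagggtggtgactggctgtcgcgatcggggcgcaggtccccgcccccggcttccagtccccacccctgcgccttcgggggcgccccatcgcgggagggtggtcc
Btc: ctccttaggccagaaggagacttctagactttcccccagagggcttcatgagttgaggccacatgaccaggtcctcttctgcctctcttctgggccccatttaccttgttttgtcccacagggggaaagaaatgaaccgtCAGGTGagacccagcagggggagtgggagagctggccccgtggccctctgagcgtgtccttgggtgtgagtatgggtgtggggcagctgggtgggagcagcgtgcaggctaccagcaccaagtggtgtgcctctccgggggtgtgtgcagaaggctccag
Erbb2: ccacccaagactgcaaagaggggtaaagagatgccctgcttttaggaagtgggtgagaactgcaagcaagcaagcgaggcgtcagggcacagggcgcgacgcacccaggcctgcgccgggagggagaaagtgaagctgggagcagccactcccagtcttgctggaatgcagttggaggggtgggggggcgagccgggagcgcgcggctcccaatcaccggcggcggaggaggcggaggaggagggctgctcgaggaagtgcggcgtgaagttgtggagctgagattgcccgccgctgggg
Egfr: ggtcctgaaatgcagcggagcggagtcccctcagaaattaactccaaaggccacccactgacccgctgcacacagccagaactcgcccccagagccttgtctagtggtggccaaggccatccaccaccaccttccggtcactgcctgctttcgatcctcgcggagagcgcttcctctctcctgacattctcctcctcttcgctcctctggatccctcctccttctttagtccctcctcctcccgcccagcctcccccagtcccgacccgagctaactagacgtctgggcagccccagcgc

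The E-box began 197 bases before the start of Tgfa and 110 bases before that of Btc, and was not in these windows of Erbb2 and Egfr. The promoters of Areg and Epgn also held it, those 20 and 245 bases before the start, and that of Erbb4 did not. In all, 4 of the 7 listed members held the motif, against 20.2% of 32851 mouse promoters of this length. A match of these letters is a description of the sequence and not a binding site. The GC content was 70.7% in the Tgfa window, 66% in that of Erbb2, 62.3% in that of Egfr and 60.3% in that of Btc, against a median of 52.7% over all promoters. Btc, Areg, Ereg and Epgn follow each other directly among the protein-coding genes of chromosome 5.

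**Figure D1:**
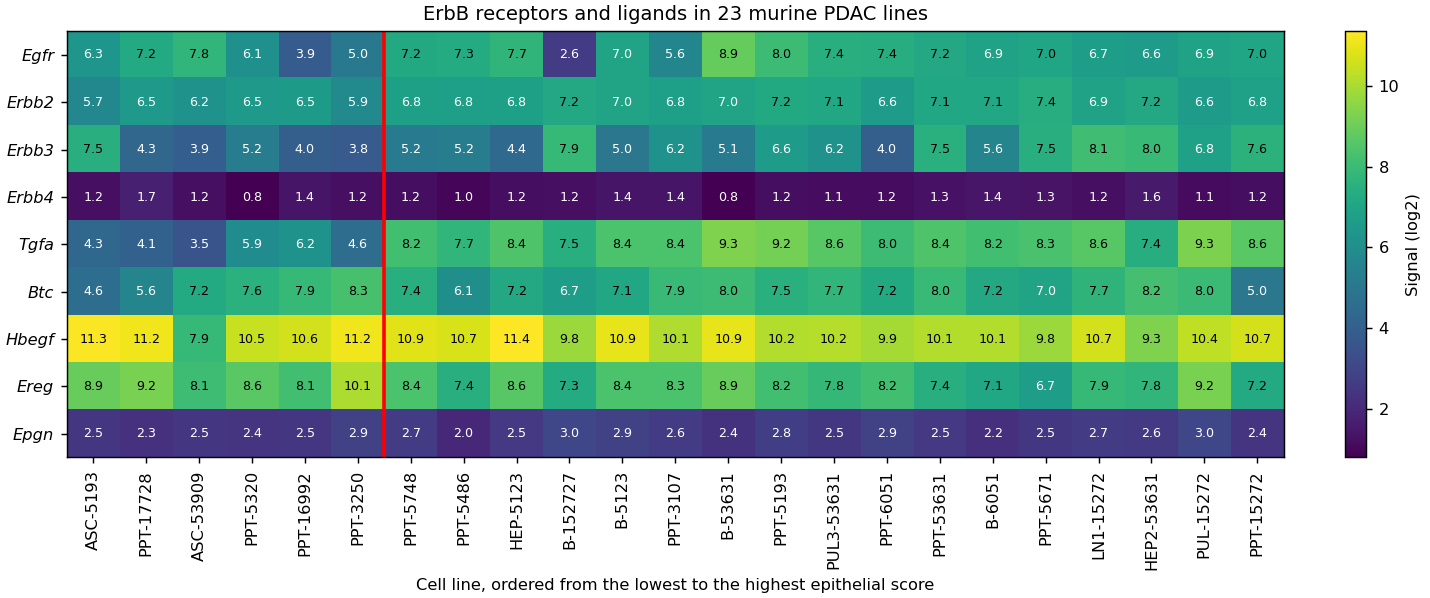
Log2 signal of the 9 measured members (rows) in the 23 cell lines (columns, from the lowest to the highest epithelial score), written into each field and coloured from low (dark) to high (yellow). The red line divides the 6 Cdh1-low lines from the 17 other lines. Tgfa lies between 3.52 and 6.16 to its left and between 7.38 and 9.32 to its right, and the low Egfr field at its right is B-152727 (2.64).

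Among the receptors, Erbb2 was the most even of those above background. Its signal had a standard deviation of 0.42 over the 23 lines and lay above the array median in every line. In the Cdh1-low lines it was 5.74 in ASC-5193, 5.86 in PPT-3250, 6.20 in ASC-53909, 6.45 in PPT-17728 and in PPT-5320, and 6.54 in PPT-16992. In the 17 other lines it ran from 6.58 in PUL-15272 to 7.37 in PPT-5671, with a median of 6.95. All 6 Cdh1-low lines therefore lay below all other lines, but the nearest lines were only 0.04 apart. Over all lines, Erbb2 rose by 0.14 (SE 0.03, log2 per unit of score, adjusted p = 0.00237 in limma).

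Erbb3 varied more than any other receptor over the 23 lines, with a standard deviation of 1.48 against 1.35 for Egfr. Within the Cdh1-low lines the standard deviation was 1.41 for Erbb3 and 1.43 for Egfr, and within the 17 others 1.33 and 1.29. Among the Cdh1-low lines it was 3.83 in PPT-3250, 3.94 in ASC-53909, 3.97 in PPT-16992, 4.26 in PPT-17728 and 5.25 in PPT-5320, and 7.46 in ASC-5193. The last value lay near the upper end of the whole range although ASC-5193 had the lowest epithelial score of all lines. Among the 17 other lines, Erbb3 ran from 3.99 in PPT-6051 and 4.41 in HEP-5123 to 7.97 in HEP2-53631 and 8.11 in LN1-15272, with a median of 6.18. The sets overlapped. Erbb3 did not pass the test over all 23 lines, with a slope of 0.32 (SE 0.12, 95% interval 0.08 to 0.56, adjusted p = 0.0826 in limma). Without ASC-5193, an alternative added after seeing the data, it passed with a slope of 0.51 (SE 0.11, adjusted p = 0.00414 in limma). Within the 17 lines the slope was 0.56 (SE 0.21, unadjusted p = 0.0159, adjusted p = 0.409 in limma). The second probe set of Erbb3 lay at background in all 23 lines and could not serve as a check.

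Egfr, a receptor of all listed ligands, had a standard deviation of 1.35. It lay between 6.11 and 8.87 in most lines and was very low in single lines. Its median was 7.04, and the highest signal was 8.87 in B-53631. The lowest were 2.64 in B-152727, which was background, and 3.86 in PPT-16992, followed by 5.05 in PPT-3250 and 5.63 in PPT-3107. PPT-16992 and PPT-3250 were Cdh1-low lines, and B-152727 and PPT-3107 were not, with a Cdh1 signal of 10.90 in B-152727. In the remaining Cdh1-low lines Egfr was 6.11 in PPT-5320, 6.34 in ASC-5193, 7.25 in PPT-17728 and 7.76 in ASC-53909, in the range of the other lines. The slope against the score was 0.19 (SE 0.13, 95% interval -0.07 to 0.46, adjusted p = 0.367 in limma).

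The 7 Egfr probe sets did not all show the loss. The second by mean gave 3.04 in B-152727 and 3.76 in PPT-16992, its lowest signals, against a median of 6.50. The third gave 6.01 in B-152727 and 5.32 in PPT-16992 against a median of 6.16, with a standard deviation of only 0.39 over all lines. The loss in B-152727 was thus seen by the 2 probe sets with the highest means and not by the third, and that in PPT-16992 was the lowest signal of all lines at the third and the second lowest at the first and second. Erbb4 lay between 0.79 and 1.73, at background in all 23 lines, and its slope was -0.0004 (SE 0.02, adjusted p = 0.994 in limma).

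Among the ligands, Tgfa separated the lines most clearly. Its signal was 3.52 in ASC-53909, 4.09 in PPT-17728, 4.33 in ASC-5193, 4.57 in PPT-3250, 5.92 in PPT-5320 and 6.16 in PPT-16992. In the other 17 lines it ran from 7.38 in HEP2-53631 over a median of 8.38 to 9.32 in B-53631. No Cdh1-low line reached the lowest of the 17, and the nearest lines, PPT-16992 and HEP2-53631, were 1.22 apart. In ASC-53909 the signal was background. Over all lines Tgfa rose by 0.69 (SE 0.09, log2 per unit of score, 95% interval 0.50 to 0.87, adjusted p = 2.94e-05 in limma), and without ASC-5193 by 0.68 (SE 0.10, adjusted p = 2.95e-04 in limma). The dimmer second probe set also passed, with a slope of 0.07, whereas the third did not, with 0.06 (adjusted p = 0.115 in limma). At both of these probe sets the 2 sets of lines overlapped. The highest Cdh1-low signals were 4.58 and 4.11, and the lowest of the 17 were 4.32 and 3.52. At the second, ASC-53909 gave 4.37, which was not background.

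The relation of Tgfa and Erbb2 to the score rested on the distance between the 6 and the 17 lines. Within the 17 lines, added after seeing the data, the slope of Tgfa was 0.13 (SE 0.12, 95% interval -0.11 to 0.38, adjusted p = 0.801 in limma). That of Erbb2 was 0.01 (SE 0.05, 95% interval -0.09 to 0.11, adjusted p = 0.975 in limma). With the mouse as a fixed block, which compares lines of 1 mouse only, the slopes were 0.59 for Tgfa and 0.15 for Erbb2. Neither passed (adjusted p = 0.141 and 0.418 in limma). Only the mouse of PPT-5193 (score 0.97) and ASC-5193 (score -4.59) had lines on both sides of the Cdh1 gap. These slopes therefore rest largely on that pair. Features in which all 6 Cdh1-low lines lay below all others were not common on the array. Of 45000 probe sets, 0.693% were lower in all 6 Cdh1-low lines than in all 17 others and 0.451% were higher in all 6. Among the members, 2 of 9 were lower in all 6 and 0 of 9 higher.

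**Figure D2:**
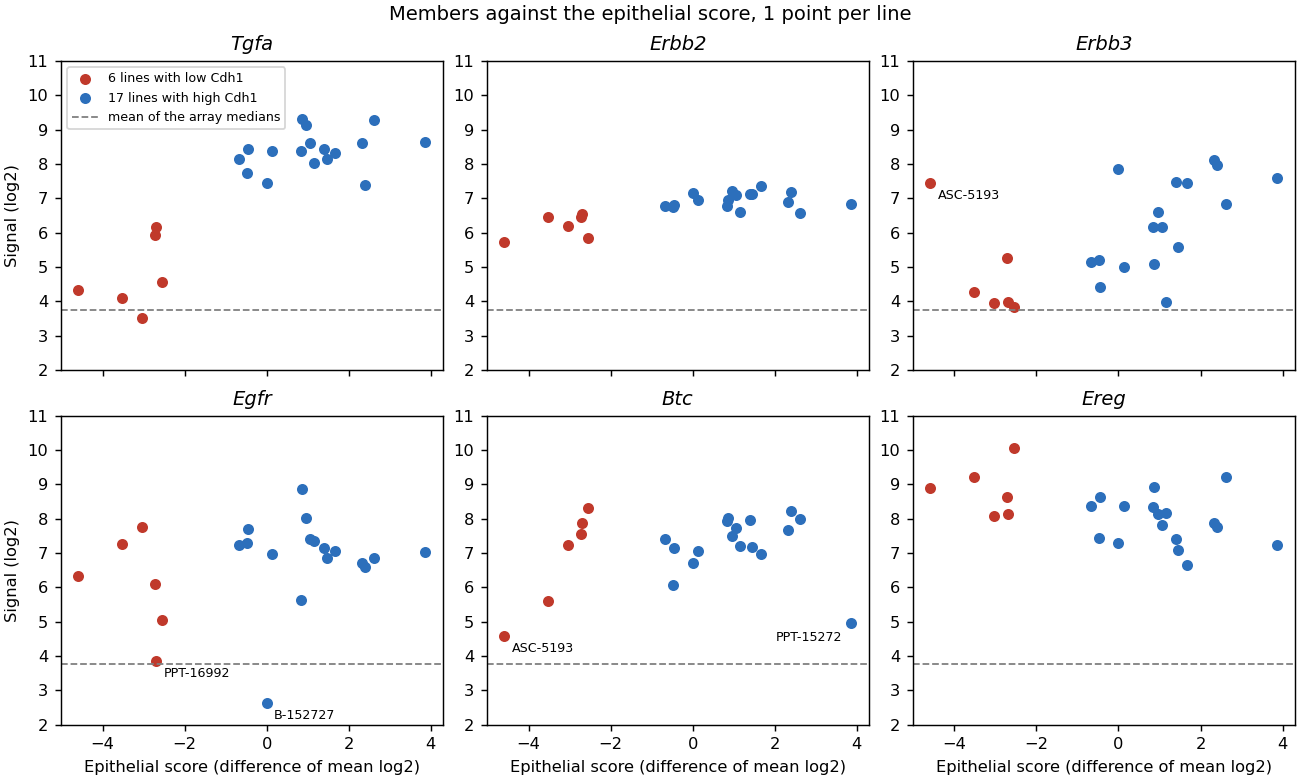
Log2 signal (y axis) of 6 members against the epithelial score (x axis, difference of mean log2 signals), with 1 point per line. Red points are the 6 Cdh1-low lines and blue points the 17 other lines, and the dashed line is the mean of the array medians (3.76). Tgfa and Erbb2 do not overlap between the colours, Erbb3 is high in ASC-5193 (7.46), and Egfr is at background in B-152727 (2.64).

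Btc was low in 3 lines from both ends of the score. It was 4.59 in ASC-5193 and 5.61 in PPT-17728, the lines with the lowest scores, and 4.97 in PPT-15272, the line with the highest. In the 4 other Cdh1-low lines it was 7.24 in ASC-53909, 7.56 in PPT-5320, 7.87 in PPT-16992 and 8.30 in PPT-3250, the last of which was the highest of all lines. The slope was 0.12 (SE 0.09, 95% interval -0.07 to 0.32, adjusted p = 0.473 in limma), and without ASC-5193 it was -0.01. The second, dimmer Btc probe set had a median of 4.79 and was at background in these 3 lines, with 2.81 in ASC-5193, 2.63 in PPT-17728 and 2.95 in PPT-15272, but also in ASC-53909 with 3.62. Its slope was 0.24 (SE 0.10, unadjusted p = 0.0267, adjusted p = 0.138 in limma).

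Hbegf, the heparin-binding ligand, was low in a single line. Its signal was 7.87 in ASC-53909, against 9.32 in HEP2-53631, the next lowest line, a median of 10.49 and 11.36 in HEP-5123, the highest. The second probe set gave 7.90 in ASC-53909, again its lowest signal, against a median of 9.63. In the 5 other Cdh1-low lines Hbegf was 10.49, 10.62, 11.15, 11.15 and 11.28, at or above the median of all lines. The slope was -0.06 (SE 0.07, 95% interval -0.21 to 0.09, adjusted p = 0.692 in limma).

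Ereg, which signals through Egfr and Erbb4, was present in all lines. It was lowest in PPT-5671 with 6.66 and highest in PPT-3250 with 10.06. In the Cdh1-low lines it was 8.08 to 10.06 with a median of 8.77, and in the 17 others 6.66 to 9.23 with a median of 7.87, so that the ranges overlapped. The slope of -0.18 (SE 0.07, 95% interval -0.33 to -0.04) had an unadjusted p of 0.0149 and did not pass (adjusted p = 0.0963 in limma). Without mouse 15272 it passed with -0.24 (adjusted p = 0.0366 in limma). Epgn lay between 2.01 and 3.05, at background in all 23 lines, with a slope of 0.02 (SE 0.03, adjusted p = 0.739 in limma).

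In all, 2 of the 9 measured members rose with the epithelial score, against 4.99% of 45000 probe sets, and 0 of 9 fell, against 5.3%. Among the 22490 probe sets brighter than the median, 9.19% rose. At an unadjusted p under 0.05, Erbb3 and Ereg were the only further members by their main probe sets, the first higher and the second lower with the score. Of the other 6 Egfr probe sets, 4 were under this limit too, all higher with the score, with slopes between 0.05 and 0.24 and none passing (smallest adjusted p = 0.0696 in limma). The split of all called probe sets, 2244 higher and 2386 lower, became 1497 higher and 3015 lower when each array was centred on its median, which left Tgfa and Erbb2 called.

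**Figure D3:**
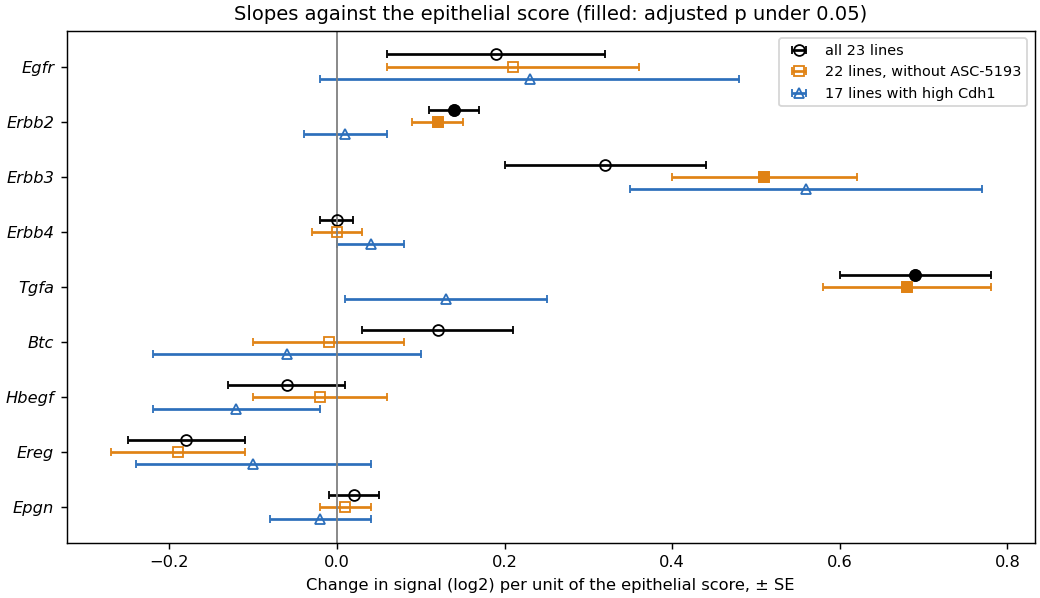
Slope of each member's log2 signal per unit of the epithelial score (x axis) with its standard error, over all 23 lines (circles), over 22 lines without ASC-5193 (squares) and within the 17 lines with high Cdh1 (triangles). Filled symbols passed at an adjusted p under 0.05. Tgfa (0.69) and Erbb2 (0.14) passed over all lines, Erbb3 passed without ASC-5193 (0.51), and none passed within the 17 lines.

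Loss of a member in a line was described as a signal at least 2 below the median of that member over the 23 lines. The rule was applied to the 6 members with a median of at least 5.76, which is 2 above the mean of the array medians. Erbb3, with a median of 5.58, was just under this limit, and Erbb4 and Epgn were at background. It found 10 losses in 8 lines, 5 of Tgfa, 2 of Egfr, 2 of Btc, 1 of Hbegf and 0 of Erbb2 and Ereg. Of these, 8 were in the Cdh1-low lines, including all 5 of Tgfa, and 2 in the 17 others. How losses of all probe sets split between these lines was not computed. Only Egfr in B-152727 and Tgfa in ASC-53909 were at background. Just inside the rule was Tgfa in PPT-5320 with 5.92, and just outside were Tgfa in PPT-16992 with 6.16 and Egfr in PPT-3250 with 5.05.

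By this rule each Cdh1-low line had lost at least 1 member, which was Tgfa in all of them but PPT-16992. ASC-5193 had lost Tgfa and Btc, ASC-53909 Tgfa and Hbegf, PPT-17728, PPT-5320 and PPT-3250 Tgfa, and PPT-16992 Egfr. Of the 17 other lines, B-152727 had lost Egfr and PPT-15272 Btc. With this rule 4 of 6 members had a loss in at least 1 line, against 11.6% of the 14253 probe sets with a median as high. At the second probe set of each member, only the Egfr losses in B-152727 (3.04), PPT-16992 (3.76) and PPT-3250 (4.43) met the rule. The second probe set of Hbegf could be used, but its 7.90 in ASC-53909 against a median of 9.63 did not meet the rule. The second probe sets of Tgfa and Btc were under the limit of 5.76, and Erbb2 and Ereg had none.

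Lines that came from the same mouse showed how far a member could differ between cultured lines of 1 animal, with 1 array for each line. From 1 mouse, Tgfa was 9.15 in PPT-5193 and 4.33 in ASC-5193, with Cdh1 at 11.50 and 2.75. In the same pair Btc was 7.50 and 4.59, Erbb2 was 7.23 and 5.74, and Egfr was 8.02 and 6.34. Erbb3 and Hbegf went the other way, with 6.61 and 10.15 in PPT-5193 against 7.46 and 11.28 in ASC-5193. This was the only mouse that gave lines from both sides of the Cdh1 gap, and a single pair has no replicate check.

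From mouse 15272, Egfr was 7.04 in PPT-15272, 6.70 in LN1-15272 and 6.86 in PUL-15272, and 2.64 in B-152727, whose number was taken as that of the same mouse. In these 4 lines Cdh1 stayed between 10.69 and 11.12, and Erbb3 between 6.85 and 8.11. Btc was 4.97 in PPT-15272 and 7.99 in PUL-15272, a range of 3.02. From mouse 53631, Erbb3 was 5.09 in B-53631, 6.17 in PUL3-53631, 7.49 in PPT-53631 and 7.97 in HEP2-53631. Egfr ran the other way among these 4 lines, with 8.87, 7.42, 7.16 and 6.58 in the same order. The pairs HEP-5123 and B-5123, and PPT-6051 and B-6051, differed by 0.05 and 0.11 in Tgfa and by 0.08 and 0.04 in Btc. They differed by 0.58 and 1.59 in Erbb3, by 0.72 and 0.49 in Egfr and by 0.25 and 1.10 in Ereg. Over the 5 mice with more than 1 line, the within-mouse standard deviation was 1.42 for Egfr, 1.30 for Tgfa, 1.05 for Btc, 0.93 for Erbb3 and 0.40 for Erbb2, against 1.35, 1.76, 1.00, 1.48 and 0.42 over all lines.

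PPT lines and lines with another prefix were compared with the mouse as a random block. No probe set passed in limma (0%, with 1649 of 45037 at an unadjusted p under 0.05 and a smallest adjusted p of 0.722), and 0 of 9 members had an unadjusted p under 0.05. The members with the smallest p were Erbb3, Hbegf and Epgn. Erbb3 was 3.83 to 7.58 with a median of 5.23 in the 12 PPT lines, and 3.94 to 8.11 with a median of 6.17 in the 11 other lines. The difference, other prefix minus PPT, was 0.44 (SE 0.54, 95% interval -0.68 to 1.55). It was -0.21 for Hbegf (SE 0.30, 95% interval -0.84 to 0.42) and 0.06 for Epgn (SE 0.11, 95% interval -0.17 to 0.28). The intervals leave room for differences of either sign.

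The study measured how the lines respond to Bez235, an inhibitor of both PI3 kinase and mTor, and gives IC50 values by line. None is listed under the label B-152727, and the value of the line with prefix B and number 15272 was used for it. Against log2 IC50 no probe set passed in limma (0%, with 2466 of 45037 at an unadjusted p under 0.05 and a smallest adjusted p of 0.207). Of the 9 members, 1 had an unadjusted p under 0.05. Btc had a slope of -0.60 for each unit of log2 IC50 (SE 0.22, 95% interval -1.05 to -0.15, unadjusted p = 0.0115, adjusted p = 0.905 in limma). Without the mouse of PPT-5193 and ASC-5193, which holds the lowest Btc signal, the slope was -0.35. Egfr had a slope of -0.53 (SE 0.32, adjusted p = 0.925 in limma), which was 0.12 without the 2 lines farthest from the median IC50, ASC-5193 and B-152727. Without B-152727 alone it was -0.04, and with the mouse as a fixed block -1.03. Tgfa had a slope of -0.53 (SE 0.41, adjusted p = 0.932 in limma), which was -0.09 without the mouse of PPT-5193 and ASC-5193, -0.04 without the 2 farthest lines and -1.02 with the fixed block.

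Of the 36 other genes of the pathway, all measured, 3 rose with the epithelial score, 0 fell and 33 did not pass, with a median slope of -0.03 against 0.00 over all probe sets. The share that rose was 8.33%, against 4.99% of all probe sets and 9.19% of the 22490 probe sets brighter than the median, so that the count was near that of the array. Muc1, a membrane mucin that binds ErbB receptors and also 1 of the ductal markers above, had the steepest slope of the 36 genes, 1.10 (SE 0.12, adjusted p = 5.49e-06 in limma). It was 3.20 to 5.01 in the Cdh1-low lines and 6.96 to 11.21 in the others. Grb7, an adaptor that binds phosphorylated receptors and whose gene is known as a neighbour of Erbb2, had a slope of 0.65 (SE 0.07, adjusted p = 6.70e-06 in limma). Its signal was 4.01 to 4.98 in the Cdh1-low lines and 6.96 to 8.49 in the others. Rhbdf2, an inactive rhomboid that brings the sheddase Adam17 to the surface, rose by 0.14 (SE 0.03, adjusted p = 0.00609 in limma).

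The sheddases themselves, Adam10 and Adam17, had slopes of -0.02 and -0.06 and did not pass. None of 12 inhibitors and feedback genes passed. Those with the smallest p were Spry4, Spry1 and Lrig1, which limit receptor signalling, with slopes of -0.20, 0.22 and -0.14 (adjusted p = 0.0607, 0.0941 and 0.116 in limma). None of 5 other ligands passed. Egf and Nrg3 were at background in all 23 lines and Nrg4 in 21 of them, whereas Nrg1, a ligand of Erbb3 and Erbb4, lay between 4.12 and 6.49.

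Genes with a pattern like that of a member were sought among 11557 other symbols with a median signal above the mean of the array medians. The 3 highest Pearson correlations over the 23 lines were taken for each member with a standard deviation over 1. Here each symbol was given by its probe set with the highest r and not by its brightest. For Tgfa these were Pard6b (r = 0.958, Spearman's rho = 0.889), Nbeal2 (0.956, 0.878) and Lad1 (0.934, 0.750). Pard6b, a cell polarity gene, was lowest in ASC-53909 with 1.82, the line in which Tgfa was lowest too, and Lad1, a basement membrane filament gene, was lowest in ASC-5193 with 3.43. For Erbb3 they were Syt7 (0.811, 0.838), Tmem86a (0.804, 0.805) and Mbnl3 (0.778, 0.827). For Egfr they were Sf3a1 (0.768, 0.716), Gab2 (0.730, 0.611) and Syt17 (0.708, 0.744), of which the first 2 were lowest in B-152727 as Egfr was. The probe sets of these 2 were dim, with 3.85 to 4.98 for Sf3a1 and 3.25 to 5.39 for Gab2. That of Gab2 was not its brightest. The points share mice and, for Tgfa, the distance between the Cdh1-low lines and the others, and the correlations are given as a description.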

How the data were processed

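RNA of 23 murine PDAC lines had been hybridised to 3′ expression arrays of the mouse genome. The authors deposited log2 signals, 1 for each probe set of each array. VSN followed by log2 is named in their supplementary methods and RMA in the submitters' processing notes, without versions. No further normalization and no pseudocount were applied here. The arrays hold 45101 probe sets, of which 64 controls were not tested. Symbols came from the platform annotation, in which 34945 probe sets had 1 symbol, 932 several and 9160 none. The arrays carry no counts, so the number of lines limits the precision. No pair of arrays was identical. Whether the lines of 1 mouse are separate cultures of separate tumours was not given for every line, so p-values measure the spread between these samples.

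Slopes and differences were fitted with limma 3.58.1 in R 4.3.3 over all probe sets, with Benjamini-Hochberg adjustment and a threshold of 0.05. The probe sets of the score genes were part of the fits against the score and of the adjustment of p. They were left out only of the counts of probe sets. The mouse was a random block (correlation 0.200 for the score, 0.243 for the prefix, 0.287 for IC50), since the centred signals of 15 same-mouse pairs correlated with a median of 0.417, against -0.085 for the 238 other pairs. The IC50 values were read from the supplement of the study. The limma slopes were tested on simulated data. Figures were drawn in Python 3.11.15 with matplotlib 3.10.9. All measured members are named against the score, the 3 with the smallest p by prefix and IC50, up to 6 pathway genes by smallest p with others described for their role or their level after the values were seen, and 3 like genes per member. The members and lists were chosen with earlier results of these data known. Alternatives comprised other normalizations, filters, blocks, scores and probe sets, and leaving out mice or lines. One further allele of the genotypes is not reported here.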

Additional observations from a re-analysis of the deposited data

How the results depend on the processing

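Tgfa and Erbb2 kept their direction in every alternative run, and lost the call with the mouse as a fixed replicate block (0.59 and 0.15) and within the 17 lines above the Cdh1 gap (0.13 and 0.01), both added after seeing the data, Tgfa also at the third of its probe sets. In these 2 alternatives 0 members were called, and 187 and 21 probe sets in place of 4630. The count was 2735 with the epithelial list alone, 3080 without the 2 lines farthest from the median score, and between 3178 and 5179 without each mouse in turn. Erbb3 was called without the mouse of PPT-5193 (0.50), without ASC-5193 (0.51), without the 2 farthest lines (0.53) and with the mouse ignored (0.36), and turned to -0.02 with the fixed block. Ereg was called with Cdh1 alone as the score (-0.20). Over their alternatives, the adjusted p from limma ran from 7.64e-06 to 0.801 for Tgfa, from 5.94e-05 to 0.975 for Erbb2, from 0.00414 to 0.984 for Erbb3 and from 0.0366 to 0.895 for Ereg.

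Slopes that were not called changed sign as follows. With the fixed block, Epgn was -0.01 and Erbb4 0.02 against the score, and Hbegf 0.13 and Epgn -0.04 by prefix. Without the 2 farthest lines, Btc was -0.10, Hbegf 0.03 and Erbb4 0.03, and Egfr against IC50 was 0.12. Over all 23 lines, Egfr against IC50 was 0.01 at the fifth of its probe sets. Within the 17 lines, Btc was -0.06, Epgn -0.02 and Erbb4 0.04. Without ASC-5193 Btc was -0.01, and after quantile normalization Erbb4 was 0.0044. Leaving out mice in turn moved Btc between -0.01 and 0.23 and Erbb4 between -0.01 and 0.02 against the score, and Hbegf between -0.38 and 0.05 and Epgn between -0.08 and 0.14 by prefix.

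By prefix 0 probe sets were called in each alternative, and against IC50 0 to 1. The 10 losses became 19 with a drop of 1, 6 with a drop of 3 and 3 at the second probe sets. The causes of these changes were not tested. Of 529 alternative values, 485 kept their direction and their side of the threshold or, for counts, stayed close to the reported count. Dim members (Erbb4, Epgn) give no usable slope at this signal over background.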

Other observations

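PPT-5486 had a Cdh1 signal of 10.80 and a Tgfa signal of 7.73, in the range of the 17 lines with high Cdh1. It also had the highest signals of all 23 lines for the fibroblast markers Pdgfrb (10.59) and Thy1 (10.65). The other fibroblast markers were highest in ASC-5193 or ASC-53909. Among them, Lum was at most 3.01 and Dcn at most 7.16 in the 17 lines, against up to 9.34 and 11.53 in the Cdh1-low lines. Pdgfra, Col1a1 and Col1a2 reached 7.46, 10.73 and 13.15 in the 17 lines, close to the 7.95, 11.07 and 13.27 reached in the Cdh1-low lines. The Btc signal of PPT-5486, 6.07, was the second lowest among these 17 lines.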
